A study of Mus musculus with 208 samples.

Results

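Cortical excitatory neurons and cortical layers are commonly recognised by a small set of marker genes, and 9 of these were followed here through every library of the study: Slc17a7, Tbr1, Neurod6, Neurod2, Cux2, Rorb, Fezf2, Foxp2 and Rprm. They were chosen by symbol, as 9 of the 46403 genes in the count tables, and all 9 were listed in each of the 4 regions. The 208 libraries were made by a modified Smart-seq3 protocol from nuclear RNA of sorted NeuN+ nuclei, that is, neuronal nuclei, of adult wild type C57BL/6NTac mice, with 1 animal and 1 region in each library. Dams carried minipumps delivering morphine sulfate (10 mg/kg/day) or saline, all pups were moved to drug-naive surrogates soon after birth, and pups of the morphine arm then received morphine (10 mg/kg) under the skin through the first weeks of life while the others received saline. In adulthood the mice were given lipopolysaccharide (LPS), a bacterial cell wall component, or saline, and tissue punches were taken 2 h later, bilateral ones according to the labels and, in the study's methods, adjacent ones for the hypothalamus. The first part of each group name gives the perinatal exposure (MOR or SAL) and the second the adult challenge. The hypothalamus had 14 MOR-LPS, 14 MOR-SAL, 12 SAL-LPS and 11 SAL-SAL libraries. In the same order there were 16, 12, 14 and 13 libraries for the hippocampus, 16, 12, 10 and 10 for the prefrontal cortex (PFC) and 18, 8, 15 and 13 for the striatum, with both sexes in every group. A punch can carry tissue from next to its target, and NeuN sorting keeps neurons of any region, so the markers also describe which neurons each library held. In such bulk libraries fewer nuclei of a type and less RNA per nucleus cannot be told apart.

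Slc17a7 encodes the vesicular glutamate transporter that loads synaptic vesicles in most cortical and hippocampal excitatory neurons, whereas most excitatory neurons of the hypothalamus and thalamus use its paralog Slc17a6. Neurod2 and Neurod6 are basic helix-loop-helix transcription factors of the NEUROD family, which bind E-box sequences and remain on in forebrain excitatory neurons. Tbr1, a T-box factor, and Fezf2, a zinc finger factor, specify deep-layer projection neurons, and Rprm, which encodes the cell cycle inhibitor Reprimo, marks deep-layer cells as well. Cux2, a homeobox factor, marks the upper layers, and Rorb, a nuclear receptor, marks the granular layer that receives thalamic input. The last 3 factors are not restricted to cortex: Foxp2, a forkhead factor of deep-layer corticothalamic cells, is also a gene of striatal projection neurons and thalamus, and Rorb and Cux2 are used by neurons outside the cortex, thalamus included.

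The sequences just upstream of the genes for the glutamate transporter and both NEUROD factors are shown because, of the 9, only these 3 were called higher in both the PFC and the hippocampus than in both the hypothalamus and the striatum (values further on). Each is the 150 bases before the RefSeq transcription start in GRCm38.p6, written 5′ to 3′ on the strand of the gene, at chr7:45163771-45163920 (plus strand), chr6:55681264-55681413 (minus strand) and chr11:98329646-98329795 (minus strand). Capitals mark E-boxes, the letters CANNTG, searched on both strands.
Slc17a7: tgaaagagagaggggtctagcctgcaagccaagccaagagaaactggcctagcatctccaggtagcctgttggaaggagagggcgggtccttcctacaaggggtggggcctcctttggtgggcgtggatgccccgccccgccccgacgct
Neurod6: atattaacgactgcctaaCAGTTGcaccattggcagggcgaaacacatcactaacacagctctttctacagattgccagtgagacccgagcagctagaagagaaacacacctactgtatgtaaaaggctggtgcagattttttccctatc
Neurod2: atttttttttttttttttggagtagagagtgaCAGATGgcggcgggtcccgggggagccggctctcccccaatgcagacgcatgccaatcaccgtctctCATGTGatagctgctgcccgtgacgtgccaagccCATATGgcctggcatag
The Neurod2 window held 3 E-boxes, one of them CAGATG, a form that NEUROD factors are known to bind, the Neurod6 window held 1, and the Slc17a7 window held 0. The Slc17a7 window held 3 GC boxes (GGGCGG or CCGCCC), which the windows of both NEUROD genes lacked. Of 32851 RefSeq windows of the same length, 47.7% held at least 1 E-box, 8.81% at least 1 CAGATG or CATCTG and 28.6% at least 1 GC box. RefSeq windows were matched for 8 of the 9 genes, and Foxp2 was the exception.

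In the GENCODE annotation of mm10, Slc17a7 lies on chromosome 7 from 45163949 to 45176142, Tbr1 on chromosome 2 from 61802930 to 61814114, Neurod6 on chromosome 6 from 55677822 to 55681263 and Neurod2 on chromosome 11 from 98325415 to 98329648. Cux2 lies on chromosome 5 from 121856366 to 122050102, Rorb on chromosome 19 from 18930605 to 19111196, Fezf2 on chromosome 14 from 12342094 to 12348189, Foxp2 on chromosome 6 from 14901349 to 15441977 and Rprm on chromosome 2 from 54084093 to 54085552. Exons of none of them overlap those of another gene, so strand handling in the counting does not mix their reads with a neighbour's. Their exonic length ran from 1460 bases (Rprm) to 16346 bases (Foxp2).

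Depth and the labelled tissue were checked first. The total count of a striatal library was between 5954700 and 92945090, of a PFC library between 3056648 and 21988203, and of a hippocampal library between 227025 and 24071488. Hypothalamic totals were the most uneven, between 7673 and 35077048 (median 5543589). All 9 markers passed the filter on low counts in each region. A count of 0 allows a level of up to 3 counts of the total, which was 391 CPM (the count relative to the library total) in the shallowest hypothalamic library (SAL-LPS 1-4), and 0.0855 CPM in the deepest (SAL-LPS 1-0). Marker lists did not follow the labels in every library. In 18 of 48 PFC libraries the summed CPM of 10 striatal genes (such as Drd1, Drd2 and Adora2a) was at or above the median of the striatal libraries (4734 CPM), and in 4 of 54 striatal libraries (SAL-SAL 3-2 and 3-4, MOR-LPS 14-4 and 15-1) it was below that of the lowest PFC library (1124 CPM). In the hypothalamus, 7 of 51 libraries stood apart with more than 3000 summed CPM of 22 other cortical excitatory genes, a list that shares no gene with the 9 markers but includes Slc17a6. These libraries were kept in the fits, and the calls of the 9 markers were also computed without them, whereas the marker lists were not refitted. No sequencing batch or date was given in the sources used here.

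Levels across regions were compared in the SAL-SAL libraries, which had neither morphine nor LPS (13 hippocampal, 10 PFC, 13 striatal and 11 hypothalamic). These libraries carried 15 replicate labels, so libraries of several regions may come from 1 animal. Levels are normalized CPM, that is, CPM after TMM scaling, here over the 47 SAL-SAL libraries of all regions together. Levels given for single regions further on were scaled over the libraries of that region alone, so the same library can differ slightly. Slc17a7 had a median of 181 normalized CPM in the PFC (0.857 to 651), 156 in the hippocampus (59.1 to 260), 14.1 in the hypothalamus (0 to 62.9) and 6.44 in the striatum (0.79 to 115). The hippocampal libraries formed a compact group, whereas the PFC libraries spread over almost the entire range and overlapped every other region. Neurod6 was highest in the hippocampus, with a median of 32.6 (17.7 to 149) against 5.55 in the PFC (0 to 22), 0.156 in the hypothalamus (0 to 2.37) and 0.159 in the striatum (0 to 11.7). Every hippocampal library was above every hypothalamic and striatal library for this gene. Neurod2 had medians of 36.7 in the hippocampus (15.7 to 71), 16.7 in the PFC (0 to 98), 0.179 in the hypothalamus (0 to 10.6) and 0 in the striatum (0 to 22.7), so hippocampal and hypothalamic libraries did not overlap here either.

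The deep-layer factors were low throughout. Tbr1 had medians of 12.8 in the PFC (0 to 30.5), 3.26 in the hippocampus (1.03 to 17.9), 1.25 in the hypothalamus (0 to 7.21) and 0.984 in the striatum (0.134 to 8.97). Fezf2 had medians of 11.5 in the PFC (0 to 23.1), 6.25 in the hippocampus (0.766 to 20.4), 0.0839 in the striatum (0 to 21.1) and 0 in the hypothalamus (0 to 2.63). For both genes the PFC range reached down to 0 and overlapped that of every other region. Rprm had medians of 18.2 in the PFC (0 to 57.7), 9.66 in the hippocampus (0 to 98.5), 9.2 in the hypothalamus (0 to 32.4) and 2.01 in the striatum (0.106 to 8.15).

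The remaining 3 layer markers did not follow the cortical order. Foxp2 had its highest median in the striatum, at 350 normalized CPM (31 to 612), then 250 in the PFC (111 to 561), 91.2 in the hypothalamus (20.4 to 139) and 50.7 in the hippocampus (3.83 to 303). Rorb also had its highest median in the striatum, at 98.4 (6.75 to 322), with 50.8 in the hippocampus (7.36 to 91.7), 46.7 in the hypothalamus (0 to 173) and 44 in the PFC (0.364 to 111). Cux2 had medians of 93.8 in the striatum (6.18 to 231), 77.4 in the PFC (57.8 to 378), 60.3 in the hippocampus (17.3 to 259) and 56.3 in the hypothalamus (14.7 to 154). For Rorb and Cux2 the ranges of all 4 regions overlapped.

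Between genes, levels can be set side by side only per length of exon. On normalized CPM per kilobase, Slc17a7 had the highest median of the 9 in the PFC (33.5) and hippocampus (28.9), Foxp2 in the striatum (21.4) and Rprm in the hypothalamus (6.3). In the hypothalamus Cux2 and Foxp2 (both 5.58) and Rorb (4.22) came next, Slc17a7 followed (2.62), and Tbr1 (0.229), Neurod6 (0.0725), Neurod2 (0.0571) and Fezf2 (0) came last.

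**Figure D1:**
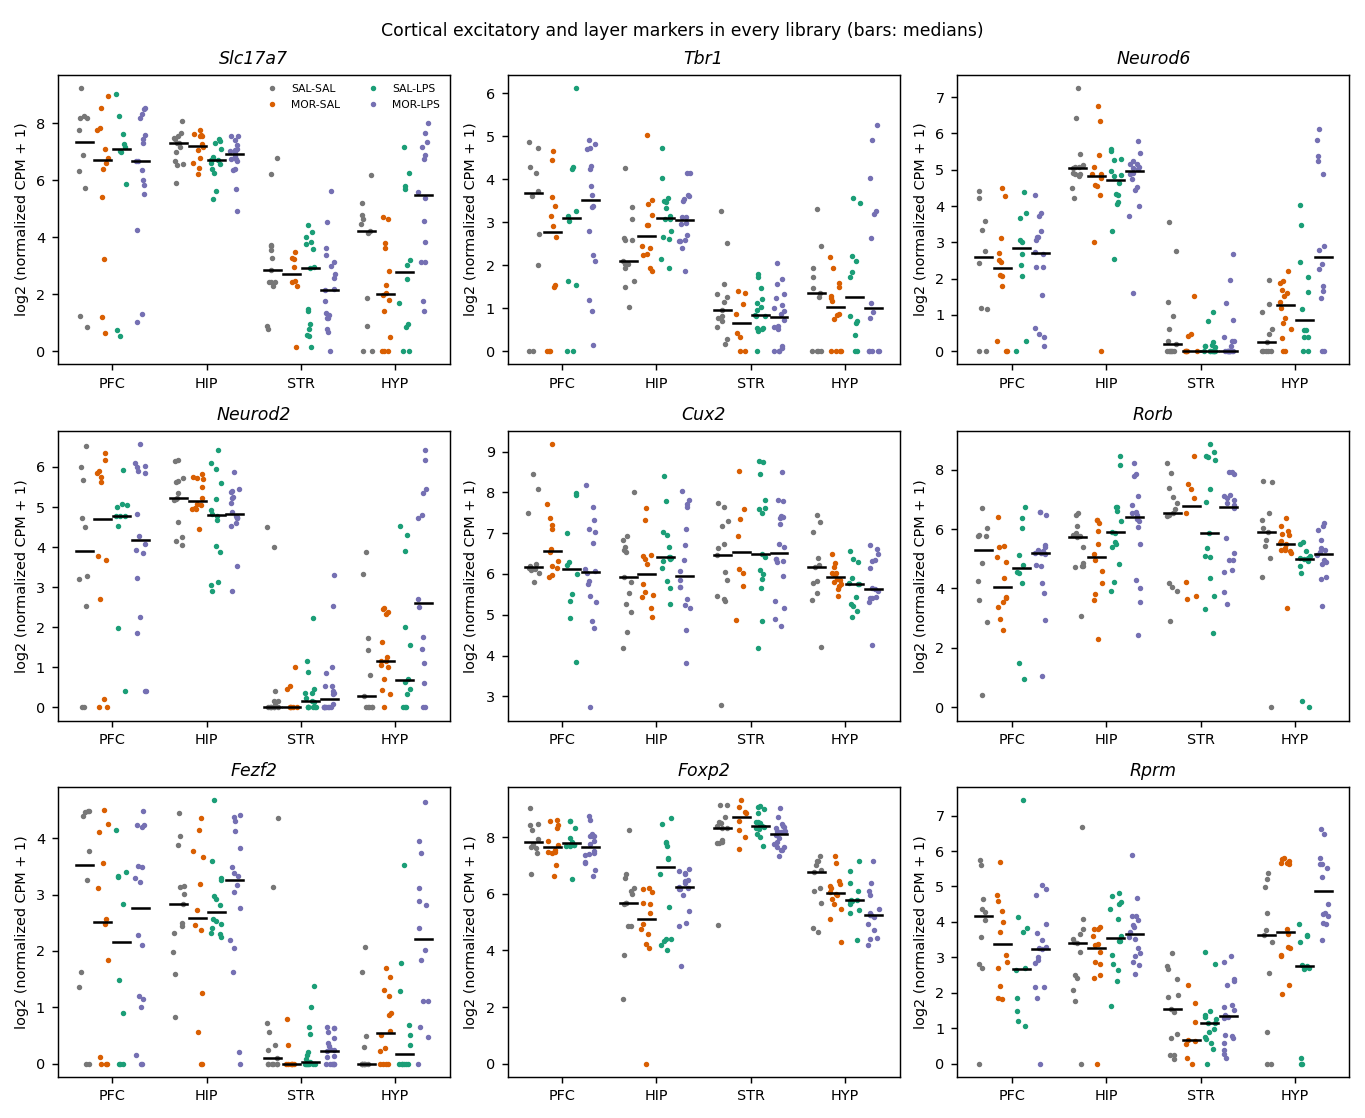
Level of each of the 9 markers in every library, as log2 (normalized CPM + 1) on the vertical axis, by region (PFC; HIP, hippocampus; STR, striatum; HYP, hypothalamus) and condition (colour), with bars at the group medians. Slc17a7, Neurod6 and Neurod2 sit high in the hippocampus and low in the striatum, Foxp2 is highest in the striatum, and a run of MOR-LPS libraries rises above most other hypothalamic points for Slc17a7, Neurod6 and Neurod2.

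The 6 pairs of regions were tested with edgeR's quasi-likelihood test on the SAL-SAL libraries, with Benjamini-Hochberg adjustment over 27637 genes, and all adjusted p for regions are from it. The main fit took libraries of different regions as independent although they share replicate labels, and a block on the label was 1 of the alternatives. In the PFC against the hypothalamus 7 of the 9 markers were higher, where 19.2% of all genes were. These were Fezf2 (log2 fold change 5.01, SE 1.15, adjusted p = 0.00025), Neurod6 (3.98, SE 0.91, adjusted p = 0.00022), Neurod2 (3.82, SE 1.06, adjusted p = 0.002), Slc17a7 (3.55, SE 0.74, adjusted p = 6.4e-05), Tbr1 (2.81, SE 0.74, adjusted p = 0.0012), Foxp2 (1.88, SE 0.42, adjusted p = 0.00016) and Cux2 (0.98, SE 0.41, adjusted p = 0.041). The call of Cux2 was lost in 6 of the 9 alternatives, with adjusted p from 0.061 to 0.31, and Neurod6 dropped to 0.73 (adjusted p = 0.097) when all 4 conditions were fitted, the 7 hypothalamic libraries set apart included. Rorb (-0.64, adjusted p = 0.31) and Rprm (0.68, adjusted p = 0.43) did not pass.

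In the hippocampus against the hypothalamus 4 markers were higher (18.3% of all genes were): Neurod6 by a log2 fold change of 6.47 (SE 0.95, adjusted p = 8.2e-08), Fezf2 by 4.52 (SE 1.12, adjusted p = 0.0006), Neurod2 by 4.05 (SE 1.05, adjusted p = 0.00094) and Slc17a7 by 2.97 (SE 0.71, adjusted p = 0.00039). The striatum differed from the hypothalamus in Foxp2, which was higher (2.16, SE 0.40, adjusted p = 1e-05; 19.9% of all genes were higher), and in Rprm, which was lower (-2.34, SE 0.69, adjusted p = 0.0035; 31.6% were lower). The shares against the hypothalamus include genes that were counted in that region alone: 8442 genes, 0 of the 9 markers among them, are listed at 0 in the other 3 regions. Over the 21065 tested genes counted in all 4 regions, 22% were higher and 14% lower in the striatum than in the hypothalamus, and the same number of markers, 2, was called. Slc17a7 had a log2 fold change of 0.00 (SE 0.76) between them, but it was lower in the striatum when all 4 conditions were fitted (-1.46, SE 0.37, adjusted p = 0.00018), where 9 markers and 71.3% of all genes were called. It was also lower without the PFC and striatal libraries whose striatal genes went against the label (-1.27, SE 0.44, adjusted p = 0.013), where 5 markers were called instead of 2 (52.6% of all genes, against 51.5% with all libraries). The fit of all 4 conditions includes the 7 hypothalamic libraries set apart. Slc17a7 ran from 75.8 to 254 normalized CPM in them, against a median of 6.57 in the other 44, and that fit was not repeated without them.

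Among the regions outside the hypothalamus, fewer genes differed. In the PFC against the striatum 6 markers were higher, where 4.37% of all genes were: Slc17a7 (3.55, SE 0.70, adjusted p = 0.00075), Neurod2 (3.78, SE 1.01, adjusted p = 0.013), Fezf2 (3.05, SE 0.97, adjusted p = 0.037), Rprm (3.02, SE 0.70, adjusted p = 0.0039), Tbr1 (2.87, SE 0.68, adjusted p = 0.0048) and Neurod6 (2.68, SE 0.74, adjusted p = 0.017). Fezf2 lost its call without the sex term (2.31, adjusted p = 0.10). In the hippocampus against the striatum Neurod6 (5.17, SE 0.78, adjusted p = 1.2e-05), Neurod2 (4.01, SE 0.95, adjusted p = 0.0045), Slc17a7 (2.96, SE 0.65, adjusted p = 0.0021) and Rprm (2.45, SE 0.67, adjusted p = 0.014) were higher, where 2.74% of all genes were, and Foxp2 was lower (-2.28, SE 0.38, adjusted p = 5.4e-05; 4.85% of all genes were lower). Rprm lost this call with the replicate label as a block (2.01, adjusted p = 0.16), and without the libraries that went against their label 8 markers were called instead of 5 (10.4% of all genes, against 7.59%).

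The PFC and hippocampus, both rich in excitatory neurons, differed in 2 markers. Foxp2 was higher in the PFC by a log2 fold change of 2.00 (SE 0.40, adjusted p = 0.00052; 5.88% of all genes were higher) and Neurod6 was lower (-2.49, SE 0.75, adjusted p = 0.025; 4.1% were lower). The Neurod6 call was lost with the replicate label as a block (-2.71, adjusted p = 0.075) and without the libraries that went against their label (-1.81, adjusted p = 0.079). Slc17a7 did not pass here (0.59, SE 0.64, adjusted p = 0.75), and neither did Neurod2 (-0.23, SE 0.89).

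Within the PFC the markers moved with the makeup of the library. Slc17a7 was under 2 normalized CPM in 8 of the 48 PFC libraries, and 7 of these 8 were among the 18 whose striatal genes reached the striatal median. The remaining low library, MOR-LPS 15-1, had 3981 summed CPM of the striatal list and a Slc17a7 level of 1.04. Across those 18 libraries Slc17a7 ran from 0.452 to 153 (median 31.1), and across the other 30 from 1.04 to 603 (median 206). Neurod2 ran from 0 to 71.1 (median 3.36) in the 18 and from 0.32 to 94.4 (median 40.6) in the 30, and Foxp2 from 167 to 529 (median 325) in the 18 and from 90.5 to 346 (median 190) in the 30. Other lists differed too. Median summed CPM in the 18 and the 30 were 2748 and 1625 for thalamic genes, 937 and 593 for hippocampal genes, and 3771 and 4426 for the other cortical genes. The highest Slc17a7 levels among the 54 striatal libraries were 109 in SAL-SAL 3-4 and 72.4 in SAL-SAL 3-2, 2 of the 4 libraries with the lowest striatal genes, with Neurod2 at 21.6 and 15.1 and Fezf2 at 7.74 and 19.6. The other 2 of these 4, MOR-LPS 14-4 and 15-1, had low Slc17a7, at 1.51 and 3.51.

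Foxp2 followed the striatal list in each of the regions it was computed for. Over the libraries with at least 0.5 of their region's median total, on log2(value + 1), Pearson's r of Foxp2 (normalized CPM) with that list (summed CPM) was 0.84 in the hippocampus (53 libraries; Spearman's rho 0.83), 0.76 in the PFC (45 libraries; rho 0.74) and 0.59 in the striatum (54 libraries; rho 0.55). Without the 2 libraries farthest from the median of the list, r was 0.81, 0.71 and 0.61. In the hypothalamus Foxp2 was set against the thalamic list (r 0.67, rho 0.66, 48 libraries, r 0.66 without the 2 farthest), and within single conditions r there ran from 0.54 to 0.81. Rorb and Cux2 moved with the thalamic list (9 genes such as Prkcd, Tcf7l2 and Lef1) in the striatum, with r of 0.68 (rho 0.67, 0.65 without the 2 farthest) and 0.78 (rho 0.73, 0.75 without). For these 6 relations both permutation p were 1e-05, the smallest that 100000 permutations can give, and the Benjamini-Hochberg values over the 51 relations computed were 5.1e-05 for r and 6.4e-05 for rho. The relation of Rorb to the thalamic list differed between regions, with r of 0.54 in the hypothalamus (rho 0.40, adjusted permutation p = 0.00033 and 0.016), 0.51 in the hippocampus (rho 0.70, 0.00041 and 6.4e-05) and -0.31 in the PFC (rho -0.29, 0.061 and 0.10). For Cux2 in the hypothalamus r was 0.37 (rho 0.20, adjusted permutation p = 0.019 and 0.25) and dropped to 0.09 without the 2 farthest libraries. Marker and list come from the same libraries and share their depth and composition.

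**Figure D2:**
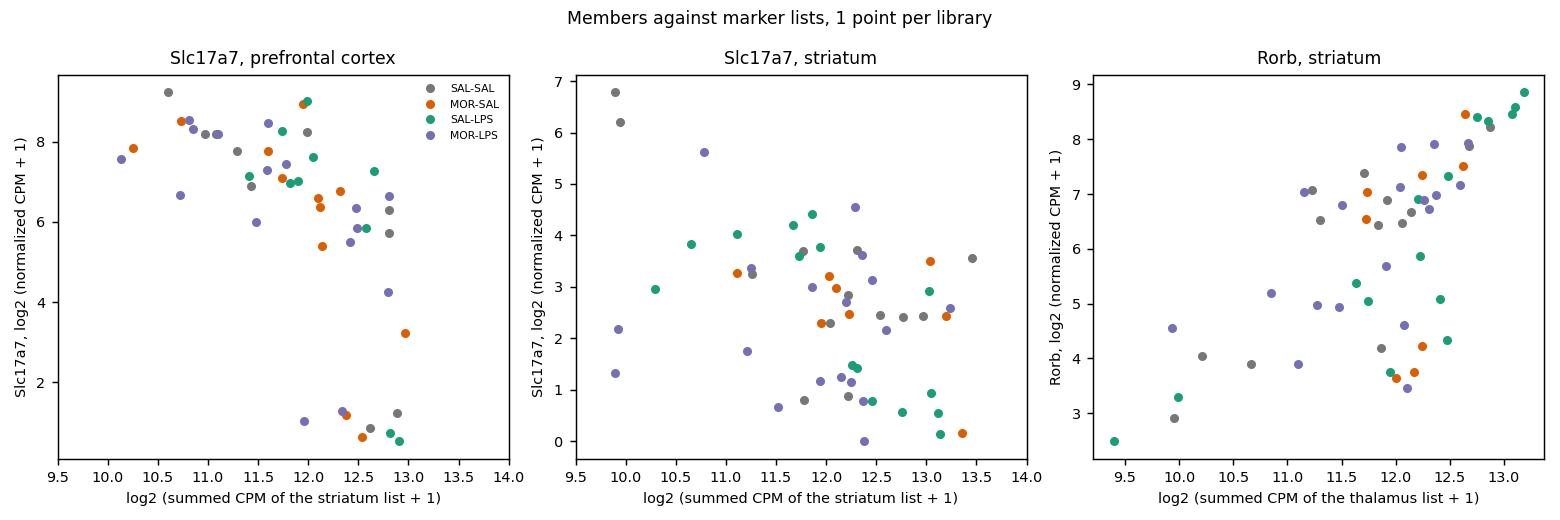
Slc17a7 in the PFC and in the striatum against the summed CPM of 10 striatal genes, and Rorb in the striatum against that of 9 thalamic genes, each point being 1 library coloured by condition, both axes on a log2 scale. The 8 PFC libraries with Slc17a7 under 2 normalized CPM lie at the lower right of the first panel, and Rorb climbs with the thalamic genes in the last (r 0.68 over 54 libraries).

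Whether perinatal morphine, LPS or both were accompanied by a difference in these markers was asked in 5 contrasts per region. The exposure contrasts were MOR-SAL vs SAL-SAL (at baseline) and MOR-LPS vs SAL-LPS (under challenge). The LPS contrasts were SAL-LPS vs SAL-SAL (after saline) and MOR-LPS vs MOR-SAL (after morphine), and the interaction is the second of these minus the first. These contrasts share control libraries. Each region was fitted in edgeR with condition and sex as terms. In the hippocampus, PFC and striatum the quasi-likelihood test called 0 of the 9 markers in any of the 5 contrasts, and DESeq2 also called 0. At an unadjusted p under 0.05 there were, in the order of the contrasts, 0, 1, 5, 1 and 0 markers in the hippocampus, 0 in every contrast of the PFC, and 1, 0, 1, 1 and 2 in the striatum. At the same unadjusted p, 10.3% to 17.5% of all genes stood in the hippocampus (17.5% in SAL-LPS vs SAL-SAL, the contrast with 5 markers), 10.1% to 13.2% in the PFC and 11.2% to 17.8% in the striatum. The shares of all genes called at an adjusted p under 0.05 in the same order were 0%, 2.73%, 2.55%, 0.467% and 2.35% in the hippocampus, 0%, 0.0046%, 0%, 0.0184% and 1.78% in the PFC and 0%, 0%, 0.0128%, 1.39% and 0.00854% in the striatum.

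Slc17a7 is given as the example for the hippocampus. Its hippocampal level ran from 58.7 to 266 normalized CPM in SAL-SAL (median 157), from 72.6 to 217 in MOR-SAL (147), from 39.4 to 171 in SAL-LPS (104) and from 29.2 to 186 in MOR-LPS (120). The groups overlapped, and the log2 fold change in SAL-LPS vs SAL-SAL was -0.41 (SE 0.19, adjusted p = 0.22 by edgeR). The other hippocampal markers with an unadjusted p under 0.05 in that contrast were Neurod6 (-0.74, SE 0.34), Tbr1 (0.80, SE 0.35), Rorb (0.98, SE 0.44) and Foxp2 (0.98, SE 0.44), with adjusted p from 0.19 to 0.22. In the same contrast the 10 striatal genes had a median log2 fold change of 1.31 (10 positive, 0 called), the 9 thalamic genes of -1.24 (1 positive, 1 called lower) and the 10 hippocampal genes of -0.47 (1 positive, 1 called lower). The part of these lists in the marker values was not tested. In the PFC the SE of Slc17a7 in the 4 simple contrasts was 0.68 to 0.80 on the log2 scale, so a modest difference was not detectable there.

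The hypothalamus was the region where the markers differed between conditions, and its libraries are therefore described first. Slc17a7 ran from 0 to 71.5 normalized CPM in SAL-SAL (median 17.8), from 0 to 24.9 in MOR-SAL (3.03), from 0 to 142 in SAL-LPS (5.94) and from 1.68 to 254 in MOR-LPS (43.8). The 6 highest MOR-LPS libraries (14-0, 16-0, 8-3, 16-2, 14-4 and 6-0, at 106, 117, 142, 161, 199 and 254) were above all but 1 of the remaining libraries, and the lowest 8 of that group (1.68 to 47.2) lay within the range of SAL-SAL. These 6, with SAL-LPS 1-2 (75.8), are the 7 libraries with more than 3000 summed CPM of the other cortical genes (3083 to 5013, the next library being MOR-SAL 13-3 at 2601). Outside the 7, the highest Slc17a7 level was 142, in SAL-LPS 1-0, the deepest library.

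Neurod6 ran from 5.93 to 68.4 in the 7 libraries and did not exceed 10.1 in the other 44, in 11 of which it was 0. Neurod2 ran from 18.8 to 84.4 in the 7 and did not exceed 22.1 elsewhere, again with 11 libraries at 0. Tbr1 ran from 5.17 to 37.5 in the 7 against at most 10.8 elsewhere, and Fezf2 from 4.28 to 23.8 against at most 14.5. The 5 markers of excitatory and deep-layer neurons were thus detected together in each of these 7 libraries. Rprm (5.8 to 49), Cux2 (18.1 to 103), Rorb (9.66 to 73.3) and Foxp2 (17.2 to 53.6) lay there within their range over the other 44 libraries, apart from Foxp2, whose lowest value elsewhere was 18.9.

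The same 7 libraries had little of the genes that define the hypothalamus. The summed CPM of 11 hypothalamic genes (neuropeptides such as Agrp, Pomc and Avp, and factors such as Sim1 and Nkx2-1) ran from 14.4 to 60.7 in them and from 0 to 368 (median 111) in the other 44. A list of 10 hippocampal genes summed to 3083 CPM in MOR-LPS 6-0, 1713 in 8-3, 1373 in 14-0, 1145 in 14-4 and 810 in 16-0, but to 501 in SAL-LPS 1-2 and 235 in MOR-LPS 16-2, while the other 44 libraries ran from 130 to 851. The cortical markers were therefore accompanied by high hippocampal genes in 4 of the 7 libraries and not in the other 3. The thalamic list ran from 139 to 812 in the 7, inside the range of the others (130 to 4754).

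Further hypothalamic libraries differed in other markers. SAL-SAL 10-1 and 10-3 had the highest thalamic sums (4754 and 3493), the highest Rorb (192 and 195) and high Cux2 (155 and 172), with Slc17a7 at 71.5 and 36.1 and Neurod6 at 0 in both. Their hypothalamic sums were 4.13 and 1.39. SAL-LPS 1-0 combined Slc17a7 of 142, Neurod6 of 10.1 and Neurod2 of 22.1 with Fezf2 of 0, Rorb of 0.172 and a hypothalamic sum of 4.14.

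**Figure D3:**
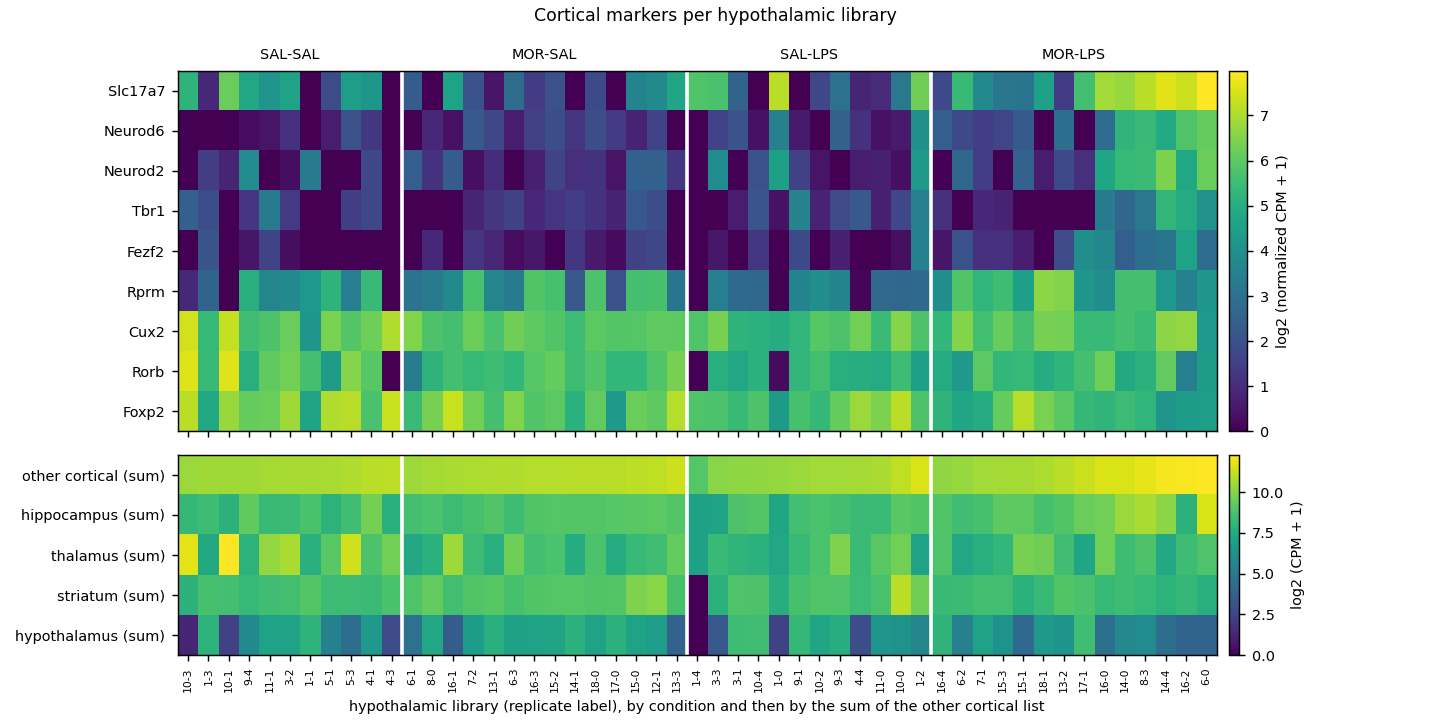
Heat map of the 51 hypothalamic libraries, one column each, grouped by condition and ordered by the summed CPM of the other cortical list, with the 9 markers above (log2 normalized CPM + 1) and 5 marker lists below (log2 summed CPM + 1). At the right end of MOR-LPS 6 columns turn bright for Slc17a7, Neurod6, Neurod2, Tbr1 and Fezf2 and dark for the hypothalamic list, as does the last SAL-LPS column.

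In MOR-LPS vs MOR-SAL, the hypothalamic response to LPS after perinatal morphine, 5 of the 9 markers were higher, where 6.27% of all genes were called and 4.1% were called higher. Slc17a7 had a log2 fold change of 3.35 (SE 0.76, edgeR adjusted p = 0.0057), Neurod6 of 3.34 (SE 0.73, edgeR adjusted p = 0.0043), Neurod2 of 3.09 (SE 0.83, edgeR adjusted p = 0.018), Fezf2 of 2.99 (SE 0.86, edgeR adjusted p = 0.026) and Tbr1 of 2.67 (SE 0.84, edgeR adjusted p = 0.042). The median over the 9 markers was 2.67 and that over all genes 0.00. The groups overlapped for each: Neurod6 ran from 0 to 3.66 (median 1.41) in MOR-SAL and from 0 to 68.4 (5.13) in MOR-LPS, and Tbr1 had the same median, 1.03, in both. Rprm (0.86, SE 0.49, adjusted p = 0.34), Cux2 (-0.02, SE 0.21), Rorb (-0.28, SE 0.32) and Foxp2 (-0.65, SE 0.27, adjusted p = 0.13) did not pass.

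The libraries set apart fall unevenly in this contrast, MOR-LPS holding 6 and MOR-SAL 0. They were picked after the data had been seen, by genes that were themselves higher in this contrast, so lower values without them are built into the choice. Without the 7 libraries edgeR called 0 of the 9 markers and 1.32% of all genes: the log2 fold change was 1.29 for Slc17a7 (adjusted p = 0.45), 0.83 for Neurod6 (adjusted p = 0.71), 0.01 for Neurod2, 1.71 for Fezf2 (adjusted p = 0.47) and -2.17 for Tbr1 (adjusted p = 0.27), a reversed sign. With 1 library left out at a time, Slc17a7, Neurod6 and Neurod2 were called in each of the 51 fits, and with all libraries of a first number left out in 17, 16 and 14 of 17. The loss of MOR-LPS 16-2 alone took the calls of Tbr1 (2.15, adjusted p = 0.13) and Fezf2 (2.34, adjusted p = 0.094) in edgeR. Tbr1 was called in 39 of the 51 fits that left out 1 library and in 12 of the 17 that left out all libraries sharing the first number of their label, and it also lost its call without any one of 11 further libraries. Fezf2 was called in 50 and 15 of these fits. With the first number of the replicate label as a block, 1 marker was called, Slc17a7 (3.41, adjusted p = 0.0036).

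Of the other cortical list, the one by which the 7 libraries were set apart, 10 of 22 genes were higher in the same contrast and 0 lower (median 0.98), with the 7 libraries included. Those with the smallest adjusted p in edgeR were Camk2a, a synaptic kinase (1.25, SE 0.27, adjusted p = 0.0034), Zbtb18, a transcriptional repressor (1.99, SE 0.48, adjusted p = 0.0088), and Nrgn, a calmodulin-binding synaptic protein (2.37, SE 0.60, adjusted p = 0.013). Of the hippocampal list 3 of 10 genes were higher. Markers of non-neuronal cells were higher too: 4 of 5 astrocyte genes, 4 of 6 oligodendrocyte genes and 3 of 6 microglial genes, with 0 lower in each. The summed astrocyte genes ran from 13.2 to 45.1 CPM in MOR-SAL and from 14.6 to 618 in MOR-LPS, and the oligodendrocyte genes from 75.4 to 673 and from 191 to 6115. Of the striatal list 1 of 10 was lower, of GABAergic genes 1 of 6 was higher and 1 lower, and the thalamic, hypothalamic, endothelial, choroid plexus and pan-neuronal lists had 0 called. The part of these other cells in the values of the 9 markers was not tested.

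In MOR-LPS vs SAL-LPS, the exposure contrast under challenge, 1 of the 9 markers was called (1.03% of all genes were), Rprm, at a log2 fold change of 2.73 (SE 0.56, edgeR adjusted p = 0.031). Another 4 had an unadjusted p under 0.05, as 13.9% of all genes had: Neurod6 (2.39, SE 0.73, adjusted p = 0.077), Neurod2 (2.03, SE 0.82), Fezf2 (2.16, SE 0.90) and Slc17a7 (1.72, SE 0.76). Over all genes the number called depended on single libraries: 298 with all of them, 2 without MOR-LPS 6-0 and 329 without SAL-SAL 10-3. Without the 7 libraries Slc17a7 stood at -0.17 and Neurod2 at -0.97, and the log2 fold change of Rprm was 3.01 but its adjusted p 0.066. Of the marker lists, 2 of 10 hippocampal genes (median 1.09, 10 positive) and 1 of 22 other cortical genes (0.88, 17 positive) were called higher in this contrast. The others had 0 called, among them the astrocyte (median 1.4, 5 of 5 positive), oligodendrocyte (0.96, 6 of 6), microglial (0.62, 6 of 6) and striatal genes (-0.98, 0 of 10). Their part in the marker values was not tested.

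The 3 remaining hypothalamic contrasts called 0 markers in edgeR and in DESeq2. In MOR-SAL vs SAL-SAL, where 1.44% of all genes were called, 2 markers had an unadjusted p under 0.05 (17.3% of all genes), Slc17a7 (-1.67, SE 0.75, adjusted p = 0.22) and Rorb (-0.69, SE 0.34, adjusted p = 0.28). In SAL-LPS vs SAL-SAL (0.246% of all genes called) 5 had one, as 14% of all genes did, with Rorb closest to a call (-1.44, SE 0.37, adjusted p = 0.054). It was called without the low-depth libraries, in 5 of the 51 fits that left out 1 library and in 1 of the 17 that left out a first number. Without first number 10 its edgeR adjusted p was 0.27. The 9 thalamic genes had a median log2 fold change of -1.94 in this contrast (0 positive, 3 called lower), and their part in the Rorb value was not tested. In the interaction (3.8% of all genes called) Slc17a7 had the largest value (3.39, SE 1.07, adjusted p = 0.055), followed by Neurod2 (2.47, SE 1.16) and Rprm (2.30, SE 0.77, adjusted p = 0.075). Slc17a7 passed with DESeq2's size factors, with library size as the only scaling, without the low-depth libraries and with the block, with adjusted p from 0.014 to 0.049. It was called in 10 of the 51 fits that left out 1 library and in 4 of the 17 that left out a first number, with an edgeR adjusted p of 0.34 without number 10. Without the 7 libraries it stood at 1.47 (SE 1.14, adjusted p = 0.66), Neurod2 at -0.51 and Rprm at 2.66 (adjusted p = 0.063). In the same interaction 4 of 6 oligodendrocyte, 2 of 5 astrocyte, 4 of 9 thalamic, 1 of 6 microglial, 1 of 4 choroid plexus and 2 of 22 other cortical genes were called higher. Called lower were 3 of 10 striatal, 1 of 11 hypothalamic and 1 of 22 other cortical genes, and of 6 GABAergic genes 1 was higher and 1 lower. The part of these lists in the marker values was not tested.

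**Figure D4:**
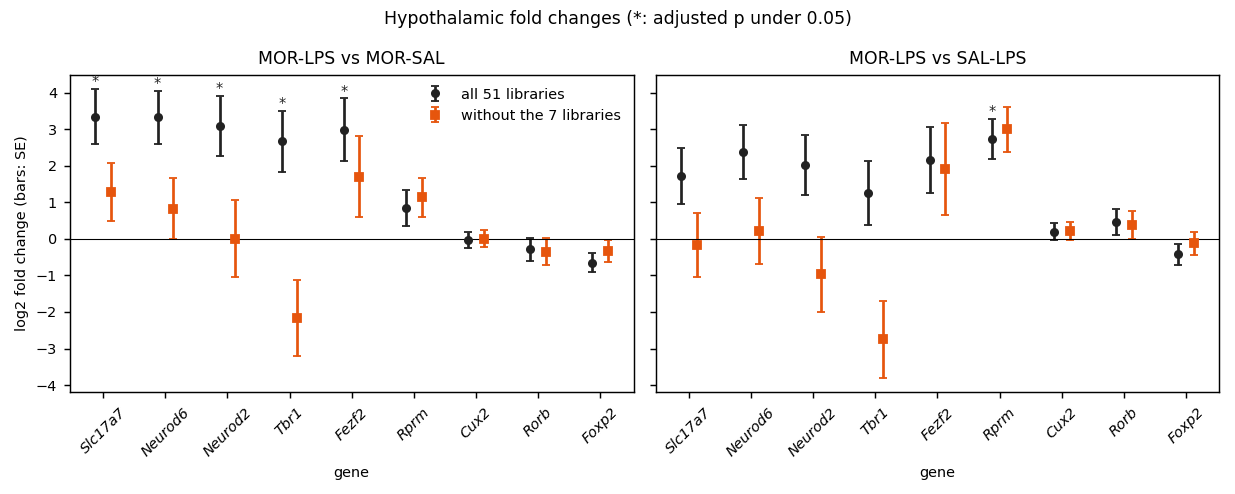
Log2 fold changes of the 9 markers in 2 hypothalamic contrasts, with bars at 1 SE, from the fit on all 51 libraries (circles) and without the 7 libraries with over 3000 CPM of other cortical genes (squares); asterisks mark an adjusted p under 0.05 in edgeR. In MOR-LPS vs MOR-SAL the values of Slc17a7, Neurod6, Neurod2, Tbr1 and Fezf2 drop without these libraries, whereas Rprm in MOR-LPS vs SAL-LPS goes from 2.73 to 3.01.

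Rprm behaved apart from the other deep-layer markers. Its hypothalamic level ran from 0 to 14.3 normalized CPM in SAL-LPS (median 5.74), from 10.3 to 97 in MOR-LPS (29.4), from 0 to 40.8 in SAL-SAL (11.4) and from 2.92 to 55 in MOR-SAL (12.3). SAL-LPS and MOR-LPS overlapped only between 10.3 and 14.3. The highest MOR-LPS level, 97, was in 18-1 and the next, 87.5, in 13-2, both outside the 7 libraries. The call was lost without 5 libraries that were close to another of their group and lie in neither group of this contrast (2.67, edgeR adjusted p = 0.061). Without MOR-LPS 6-0 the log2 fold change was 2.77 and the edgeR adjusted p 0.053, and the call held in 50 of the 51 fits that left out 1 library and in 12 of the 17 that left out all libraries sharing the first number of their label.

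Within MOR-SAL, Rprm separated the sexes. The 7 females ran from 13 to 55 (median 50.1), 6 of them between 49 and 55, and the 7 males from 2.92 to 11.6 (median 7.35), without overlap. The log2 fold change of females against males was 2.68 (SE 0.64, unadjusted p = 8.8e-05 in edgeR), which did not pass over all genes (adjusted p = 0.32), nor did the difference between the sexes in MOR-SAL vs SAL-SAL (2.58, SE 0.95, adjusted p = 0.24). This comparison was added after the values had been seen, and since each first number of the MOR-SAL labels held libraries of 1 sex, sex and that number cannot be told apart. In SAL-SAL, the reference group for exposure, the 5 females ran from 0 to 40.8 (median 0.843, 2 of them at 0) and the 6 males from 4.89 to 35.7 (median 12). In MOR-LPS the females ran from 10.3 to 97 and the males from 17.1 to 87.5, and in SAL-LPS the females from 0.111 to 14.3 and the males from 0 to 9.73, with overlap in both. Of the 6 females between 49 and 55, 5 were also close to one another over all genes: pairs of libraries of the same group that differed by less than 5 times the counting error involved 8 hypothalamic libraries, with a lowest ratio of 3.29 against a median of 22.2, and no pair was within counting error. The 8 also include the MOR-SAL male 13-1, with Rprm at 11.6, and the comparison of the sexes was not refitted without them.

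**Figure D5:**
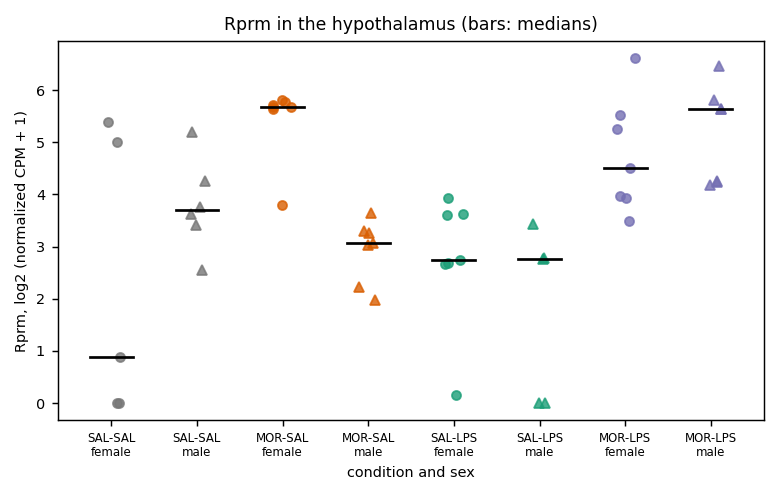
Rprm in the 51 hypothalamic libraries, as log2 (normalized CPM + 1), by condition and sex, with 1 point per library (circles females, triangles males) and bars at the medians. In MOR-SAL 6 females form a tight row between 49 and 55 normalized CPM above all 7 males, and in MOR-LPS both sexes are spread from 10.3 to 97.

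The genes whose hypothalamic pattern was most like the mean of the 9 markers were Actr3b, an actin-related protein (r 0.81), Wasf1, an actin regulator of the WAVE complex (r 0.81), Itga4, an integrin subunit (r 0.80), Dlgap1, a postsynaptic scaffold protein (r 0.80), and Mlip, a lamin-interacting protein (r 0.80). These are Pearson correlations of log2(CPM + 1) over 48 libraries among 13129 genes with a mean of at least 5 CPM, given as a description. Dlgap1 had a median of 211 CPM and reached 769, whereas Mlip had a median of 7.72 and reached 92.4.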

How the data were processed

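The authors trimmed reads with Trim Galore 0.6.7, aligned them to mm10 with STAR 2.7.10a and counted reads per gene with STAR (HTSeq 0.12.4 is also named in the submitters' processing notes, as is DESeq2 1.40.2). They deposited raw counts per gene and region, and the same values as CPM, which equal count over library total. The deposited CPM leave out 37 mitochondrial genes. How strand was used is not given in the sources used here. For the hypothalamus 8442 genes are counted that the other regions list at 0, among them none of the 9 markers.

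Here counts of genes with a total above 10 were fitted per region in edgeR 4.0.16 (TMM, glmQLFit, glmQLFTest) with condition and sex, in R 4.3.3, with an adjusted p under 0.05 called. Each SE given is the absolute log2 fold change over the square root of the F statistic of the test, not a separately estimated error. Regions were compared over 47 SAL-SAL libraries with region and sex. Alternatives used DESeq2 1.42.0, limma 3.58.1, other filters and scalings, blocks and left-out libraries. Correlations used scipy 1.17.1. The fits were also run on simulated counts with a single dispersion and no mixed tissue, which differs from the libraries here, so that run does not test the calls of the markers. Levels of lists are deposited CPM. Positions are from GENCODE release M21.

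Groups came from the deposited labels. The markers, the lists and the tests were chosen with earlier results of these data known. Named genes were the 9 markers, up to 4 genes of a list with the smallest adjusted p (1 such gene is not reported here), and the 5 genes whose mean-of-markers correlation was highest. The replicate label (such as 16-2) has a number before a hyphen, which the labels do not define. There were 18 such numbers, 1 with both sexes and 0 with both exposures. Libraries of different regions with the same full label did not deviate together (median correlation 0.03 over 53 pairs, -0.01 over 772 others). Reads carry no molecular identifiers in these counts, so limits from counts cover counting error only.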

Additional observations from a re-analysis of the deposited data

Results flagged for a closer look

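In 27 sets of 8 or 10 libraries (a marker in a group), 6 had a highest library whose gap to the next was larger than Dixon's criterion allows. The nominal rate of that criterion, about 1 in 20, holds for independent sets of normally distributed values. The CPM here are skewed and bounded at 0, and several of the 6 sets share a library, so the count cannot be set against that rate. In the PFC, SAL-LPS 1-4 had Tbr1 at 68.9 normalized CPM (next 18.6) and Rprm at 172 (next 16.6), and SAL-SAL 10-3 had Slc17a7 at 603 (next 302). In the striatum, MOR-SAL 17-4 had Neurod6 at 1.88 (next 0.377), Neurod2 at 1.01 (next 0.447) and Fezf2 at 0.737 (next 0.256).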

How the results depend on the processing

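Removing libraries with markers against their label, the 7 hypothalamic libraries or close libraries was chosen after seeing the data, as was the sex comparison. In MOR-LPS vs MOR-SAL in the hypothalamus the count of 5 called markers became 0 without the 7 libraries (Tbr1 at -2.17), 2 without close libraries and 1 with the replicate block, and 3 to 6 when 1 library and 1 to 6 when 1 first number of the label was left out. In MOR-LPS vs SAL-LPS the count of 1 became 0 without the 7 and 0 without 5 close libraries, none of which is in either group of that contrast (Rprm at 2.67), and ran from 0 to 2 and from 0 to 1. In SAL-LPS vs SAL-SAL 1 marker was called without low-depth libraries (0 to 1 in both leave-one-out series). In the interaction 1 was called with DESeq2's size factors, with library size only, without low-depth libraries, without close libraries and with the replicate block (0 to 1, and 0 to 2). MOR-SAL vs SAL-SAL stayed at 0. The labels do not define the first number, so whether the replicate block is a pairing is not settled here; within the hypothalamus the correlation of libraries sharing it, estimated over all genes with limma, was -0.049. For pairs of regions the replicate block gave 1 called marker for the PFC against the hippocampus. The fit of all 4 conditions gave 9 for the hippocampus against the hypothalamus, 9 for the hippocampus against the striatum and 9 for the striatum against the hypothalamus, where 71.8%, 32.2% and 71.3% of all genes were called, and leaving out libraries against their label gave 8 and 5 for the last pairs. Apart from leaving out single libraries or numbers, 17 counts of markers moved and 202 did not, and of values of single markers 1 reversed, 25 lost and 5 gained a call and 275 did neither. The cause of these changes was not tested. In the PFC and striatum the sex term was dropped from the block on the first number, with which it is confounded. Fezf2 was 0 in 18 and Neurod6 in 11 of 51 hypothalamic libraries, and in 15 and 8 of the 48 without low depth, so most of these zeros were not in the shallowest libraries.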

Other observations

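In MOR-SAL vs SAL-SAL in the hypothalamus, where edgeR called 0 of the 9 markers, 6 of 9 thalamic genes were lower (median log2 fold change -2.11) and 2 of 4 choroid plexus genes were lower (median -3.06), where 1.17% of all genes were lower. Of the other cortical genes 1 of 22 was higher, Syt6, a synaptotagmin (1.19, SE 0.32, edgeR adjusted p = 0.039). In SAL-LPS vs SAL-SAL 3 thalamic genes and 1 choroid plexus gene were lower (0.177% of all genes were) and 2 of the 22 other cortical genes were higher, and both contrasts share the SAL-SAL libraries, whose summed thalamic genes ran from 175 to 4754 CPM against 171 to 1452 in MOR-SAL and 130 to 957 in SAL-LPS. The highest thalamic sums, 4754 and 3493, were those of SAL-SAL 10-1 and 10-3. With all libraries of that first number, 10, left out, the genes called in MOR-SAL vs SAL-SAL went from 416 to 85 and in SAL-LPS vs SAL-SAL from 71 to 1, and the lists were not refitted without them. Number 10 also holds SAL-LPS libraries, and other first numbers moved these counts too. In MOR-SAL vs SAL-SAL 119 genes were called without number 15 and 774 without number 1. In SAL-LPS vs SAL-SAL 0 were called without number 3 and 73 without number 18. Without number 15, which has no library in either group of that contrast, 15 were called.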
